A study of Bos taurus with 15 samples.

Results

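The SLC25 family holds solute carriers that sit, with few exceptions, in the mitochondrial inner membrane. Its members here were the genes of the filtered read count table whose bovine symbol is SLC25A followed by a number, which gave 34 of 10832 genes. The unfiltered table of 34773 genes held 46 such symbols, so 12 were left out by the authors' filter on low counts and are described apart.

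Pooled bovine blastocysts from in vitro production had their total RNA sequenced, to ask how extracellular vesicles of the oviduct (oEVs) alter the embryonic transcriptome and whether frozen and fresh oEVs differ in this. Embryos were cultured without oEVs (Co), with oEVs used fresh (FeEV) or with oEVs that had been frozen (FoEV), with 5 libraries per treatment, and the labels give day 7 for every embryo, whereas the methods state 8 days of culture. The oEVs came from cows after ovulation, collected at a slaughterhouse. The paper states that fresh and frozen oEVs were parts of material from the same oviducts. Each library was made from 1 ng of RNA of 1 pool of 8 to 14 embryos, and the pools with the best RNA out of 6 Co, 7 FeEV and 8 FoEV pools were taken, so an oEV effect on single embryos or on the pools left aside could not be read. The pools are the replicates, and nothing in the labels ties them to separate cows or culture runs, so p-values measure the spread between pools.

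A carrier of this family typically exchanges one small molecule for another across the inner membrane, which is closed to most charged metabolites. Nucleotides, phosphate, citric acid cycle intermediates, amino acids, acylcarnitines, cofactors and metal ions each have carriers of their own, and most members share a fold of repeated pairs of helices. The preimplantation embryo relies on oxidative phosphorylation for much of its ATP, and in it the ADP/ATP carriers and the phosphate carrier supply the ATP synthase with its substrates. The mitochondrial members are encoded in the nucleus and imported after translation.

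The libraries held 2136713 to 4058887 reads counted on genes, and every FoEV library, with 3392613 reads or more, was deeper than every Co library, with 2977004 or fewer. Ribosomal RNA took 22.0%, 20.9% and 21.5% of the filtered counts in Co, FeEV and FoEV on average. Of the blastocyst markers, all 9 of the trophectoderm list (the outer layer that forms the placenta) were measured, and their summed level ran from 6829 to 9218 CPM (reads per 1e+06 reads) in Co, from 7519 to 11087 in FeEV and from 8761 to 11802 in FoEV. The 6 inner cell mass markers, NANOG and SOX2 among them, summed to between 415 and 691 CPM over all libraries, and the 6 hypoblast markers to between 4768 and 8968. The oviduct list summed to between 38.1 and 247 CPM. Most of this was MUC1, at 22.3 to 220 CPM, and PAX8 and TPPP3 were also in the filtered table. OVGP1, FOXJ1, MSLN, WFDC2 and CAPS were left out by the filter, with OVGP1, which defines the oviduct epithelium, at 6 counts or fewer in each library. The cumulus list summed to at most 50.2 CPM and the sperm list to at most 14.2 CPM.

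Reads of SLC25A genes made up a small and similar part of every library. Of the filtered counts they took 0.187% ± 0.0156 in the Co libraries, 0.198% ± 0.0148 in those of FeEV and 0.201% ± 0.00901 in those of FoEV (SD, n = 5 each). The lowest and highest libraries were at 0.17% and 0.202% in Co, at 0.18% and 0.218% in FeEV and at 0.19% and 0.212% in FoEV, so the treatments overlapped. With ribosomal RNA genes taken out of the total, the shares were 0.24%, 0.25% and 0.256%. Single levels are given below as CPM scaled by TMM, a factor per library that makes most genes comparable between libraries. CPM does not correct for transcript length, so levels are compared between libraries, and between genes they state only which gene took more reads.

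The family covered a wide range of read numbers. Averaged over all libraries, 4 members were at 100 CPM or more, 4 between 50 and 100 CPM, 12 between 20 and 50, 7 between 10 and 20, and 7 under 10. The median member was at 26.8 CPM, against 27.9 for all genes of the filtered table. The spread between pools was also much like that of other genes. The members had a median coefficient of variation of 16.3%, 15.7% and 20.1% in Co, FeEV and FoEV, against 16.6%, 15.4% and 17.4% over all genes.

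**Figure D1:**
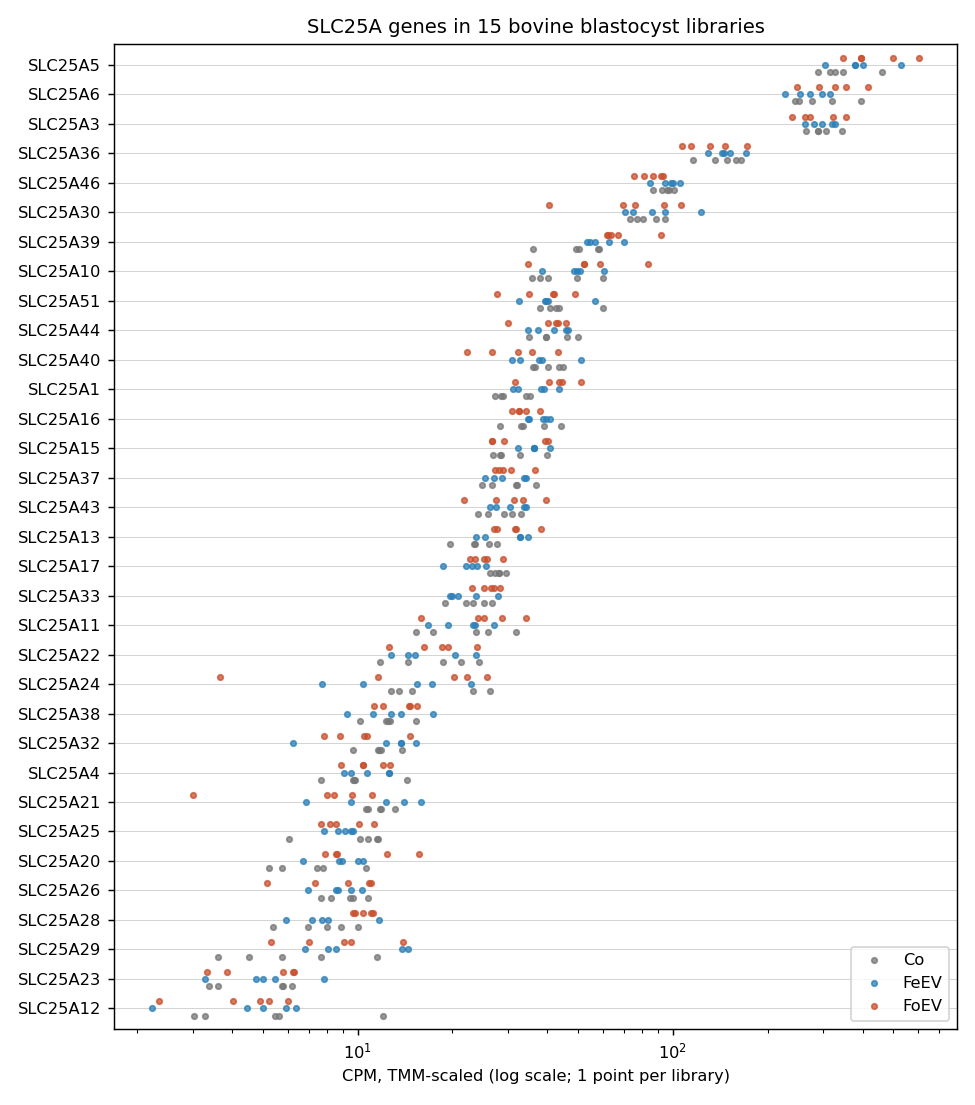
Level of 33 SLC25A genes on a log axis of CPM after TMM scaling, ordered by mean, with 1 point for each of 5 libraries of Co (grey), FeEV (blue) and FoEV (red). The genes span from SLC25A12 and SLC25A23 near 5 CPM to SLC25A5 at 288 to 604 CPM, and SLC25A24 and SLC25A21 each have 1 FoEV library far to the left of the others.

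SLC25A5, SLC25A6 and SLC25A4 encode ADP/ATP carriers, which send ATP out of the matrix and take ADP in. SLC25A5 was at 347, 328, 461, 288 and 316 CPM in Co replicates 1 to 5, at 378, 401, 378, 531 and 303 CPM in FeEV and at 499, 395, 395, 604 and 347 CPM in FoEV. FoEV replicates 1 and 4 lay above every Co library and the other FoEV libraries lay within the Co range. SLC25A6 was at 395, 276, 244, 251 and 320 CPM in Co, at 254, 227, 272, 298 and 314 CPM in FeEV and at 290, 248, 353, 417 and 328 CPM in FoEV. Its treatments overlapped throughout, with FoEV replicate 4 the highest of the 15. SLC25A4, the form known as dominant in heart and skeletal muscle, was far lower, at 10.3 ± 2.48, 10.9 ± 1.65 and 10.9 ± 1.52 CPM in Co, FeEV and FoEV (SD, n = 5 each). These 3 genes are close in sequence and have processed copies elsewhere in mammalian genomes, so the split of reads between them is uncertain where a read matched more than 1 of them.

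Within the reads of the ADP/ATP carriers, SLC25A5 took 53.1% ± 7.04, 58.0% ± 6.08 and 56.8% ± 5.23 in Co, FeEV and FoEV (SD, n = 5 each). SLC25A6 took 45.3%, 40.3% and 41.8%, and SLC25A4 took 1.57%, 1.63% and 1.4%. The balance therefore differed between libraries of 1 treatment by more than between the treatment means. In Co, for example, SLC25A5 took 46.2% in replicate 1 and 64.5% in replicate 3.

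SLC25A3 encodes the phosphate carrier, which delivers the phosphate that ATP synthase joins to ADP. It was at 307, 288, 264, 288 and 344 CPM in Co, at 263, 280, 298, 327 and 320 CPM in FeEV and at 273, 239, 355, 263 and 321 CPM in FoEV. The 3 means, 298, 298 and 290 CPM, were closer to each other than the libraries of any treatment. Together with the ADP/ATP carriers it held 50.5% ± 2.08, 50.2% ± 3.04 and 53.0% ± 3.03 of all SLC25A reads in Co, FeEV and FoEV (SD, n = 5 each).

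Below these came SLC25A36, a carrier of pyrimidine nucleotides, SLC25A46, an outer membrane member linked to mitochondrial fusion and shape, and SLC25A30, a relative of the uncoupling proteins. SLC25A36 was at 116, 148, 165, 159 and 136 CPM in Co, at 171, 152, 129, 145 and 143 CPM in FeEV and at 146, 172, 107, 114 and 131 CPM in FoEV. The highest and the lowest of its 15 libraries were both FoEV. SLC25A46 was at 92.2, 97.2, 101, 95.9 and 86.2 CPM in Co, at 100, 105, 94.5, 98.4 and 84.6 CPM in FeEV and at 75.3, 93.1, 86.8, 81.1 and 91.9 CPM in FoEV. It had the narrowest intervals of the family, and FoEV replicates 1 and 4 lay below every other library. SLC25A30 was at 88.2, 80.3, 73.2, 76.7 and 94.4 CPM in Co, at 70.6, 85.8, 94.2, 74.7 and 123 CPM in FeEV and at 69.5, 40.6, 93.7, 76.1 and 106 CPM in FoEV. FoEV replicate 2 had the lowest level and FeEV replicate 5 the highest, with the other libraries between 69.5 and 106 CPM.

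Treatments were compared gene by gene over all 10832 genes by edgeR's quasi-likelihood F test, in 1 fit over the 15 libraries, and a gene was called at a Benjamini-Hochberg adjusted p under 0.05. Fold changes are on the log2 scale, where 1 is a doubling, and intervals cover 95%. Both oEV treatments were set against the same Co libraries, so their comparisons are not independent of each other. Since RNA of whole pools was sequenced, fewer cells of a type and less RNA per cell cannot be told apart in any of these values.

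In FoEV against Co, 18 members had a higher fitted level and 16 a lower one, and their log2 fold changes ran from -0.51 to 0.51 around a median of 0.01, the same as over all genes. The quasi-likelihood test of edgeR called 0 of the 34 members, where it called 0.00923% of all genes. At an unadjusted p under 0.05 there were 5 members, all higher in FoEV, which is 14.7% of the members against 15.1% of all genes, or 8.18% for higher levels alone. The share is thus near that of all genes. The robust likelihood ratio test of edgeR, the method of the study, was rerun here, so its calls are not the paper's own. It called 1 member, SLC25A1, which is 2.94% of the members against 2.87% of all genes. It gave 6 members at an unadjusted p under 0.05, 5 higher and 1 lower in FoEV, against 18.1% of all genes. The Wald test of DESeq2 called 0 members, against 2.4% of the genes to which it gave an adjusted p, and had 4 members at an unadjusted p under 0.05, against 14.7% of all genes. Without Co replicate 2 or without FoEV replicate 4, the count at an unadjusted p under 0.05 was 3.

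The 5 members were SLC25A39, SLC25A1, SLC25A13, SLC25A5 and SLC25A20. SLC25A39 is needed for the import of glutathione, the main thiol antioxidant, into the matrix. It was at 49.2, 58.4, 58.0, 36.1 and 50.5 CPM in Co, at 54.5, 56.8, 62.9, 53.3 and 70.1 CPM in FeEV and at 62.1, 61.8, 67.0, 91.8 and 63.8 CPM in FoEV. Every FoEV library lay above every Co library, which was so for 1.26% of all genes, and FeEV overlapped with both. The log2 fold change of FoEV against Co was 0.45 ± 0.14 (SE, interval 0.17 to 0.73), a level 36.5% higher, with an unadjusted p of 0.00312 at rank 225 of all genes and an adjusted p of 0.148 in the edgeR quasi-likelihood test. Over the alternatives this adjusted p ran from 0.0536 to 0.342, and without FoEV replicate 4 the log2 fold change was 0.33 with an adjusted p of 0.313.

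SLC25A1 encodes the citrate carrier, which exports citrate from the matrix as a source of acetyl units for fatty acid synthesis in the cytosol. It was at 34.3, 27.3, 29.0, 28.5 and 35.3 CPM in Co, at 32.2, 31.2, 39.1, 38.3 and 43.6 CPM in FeEV and at 43.5, 31.5, 44.4, 51.1 and 40.6 CPM in FoEV. FoEV replicate 2 lay within the Co range and the other 4 FoEV libraries above it. FoEV against Co gave a log2 fold change of 0.45 ± 0.14 (SE, interval 0.17 to 0.73), with an unadjusted p of 0.00331 and an adjusted p of 0.148 in the edgeR quasi-likelihood test. Under the robust likelihood ratio test the adjusted p was 0.0373, and over all alternatives it ran from 0.0373 to 0.338.

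SLC25A13 encodes citrin, an aspartate/glutamate carrier of the malate-aspartate shuttle that brings reducing equivalents into the matrix. It was at 19.7, 23.6, 27.7, 26.1 and 23.4 CPM in Co, at 25.3, 32.7, 23.8, 32.8 and 34.6 CPM in FeEV and at 27.6, 31.5, 38.3, 31.7 and 27.0 CPM in FoEV. The 3 highest FoEV libraries and the 3 highest FeEV libraries lay above every Co library. The log2 fold change against Co was 0.37 ± 0.14 in FoEV (SE, interval 0.07 to 0.67, adjusted p = 0.23 in the edgeR quasi-likelihood test) and 0.30 ± 0.15 in FeEV (SE, adjusted p = 1.0).

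For SLC25A5, with the levels given above, the log2 fold change of FoEV against Co was 0.36 ± 0.17 (SE, interval 0.01 to 0.71, adjusted p = 0.313 in the edgeR quasi-likelihood test), and it was 0.23 without FoEV replicate 4. SLC25A20 encodes the carnitine/acylcarnitine carrier, which brings fatty acids into the matrix for oxidation. It was at 10.6, 7.76, 7.42, 5.22 and 5.75 CPM in Co, at 10.4, 8.91, 8.76, 10 and 6.7 CPM in FeEV and at 8.57, 8.58, 12.4, 15.7 and 7.91 CPM in FoEV. FoEV replicates 3 and 4 were above every Co library, and Co replicate 1 was above the other 3 FoEV libraries. Its log2 fold change was 0.51 ± 0.24 (SE, interval 0.02 to 1.0, adjusted p = 0.315 in the same test).

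**Figure D2:**
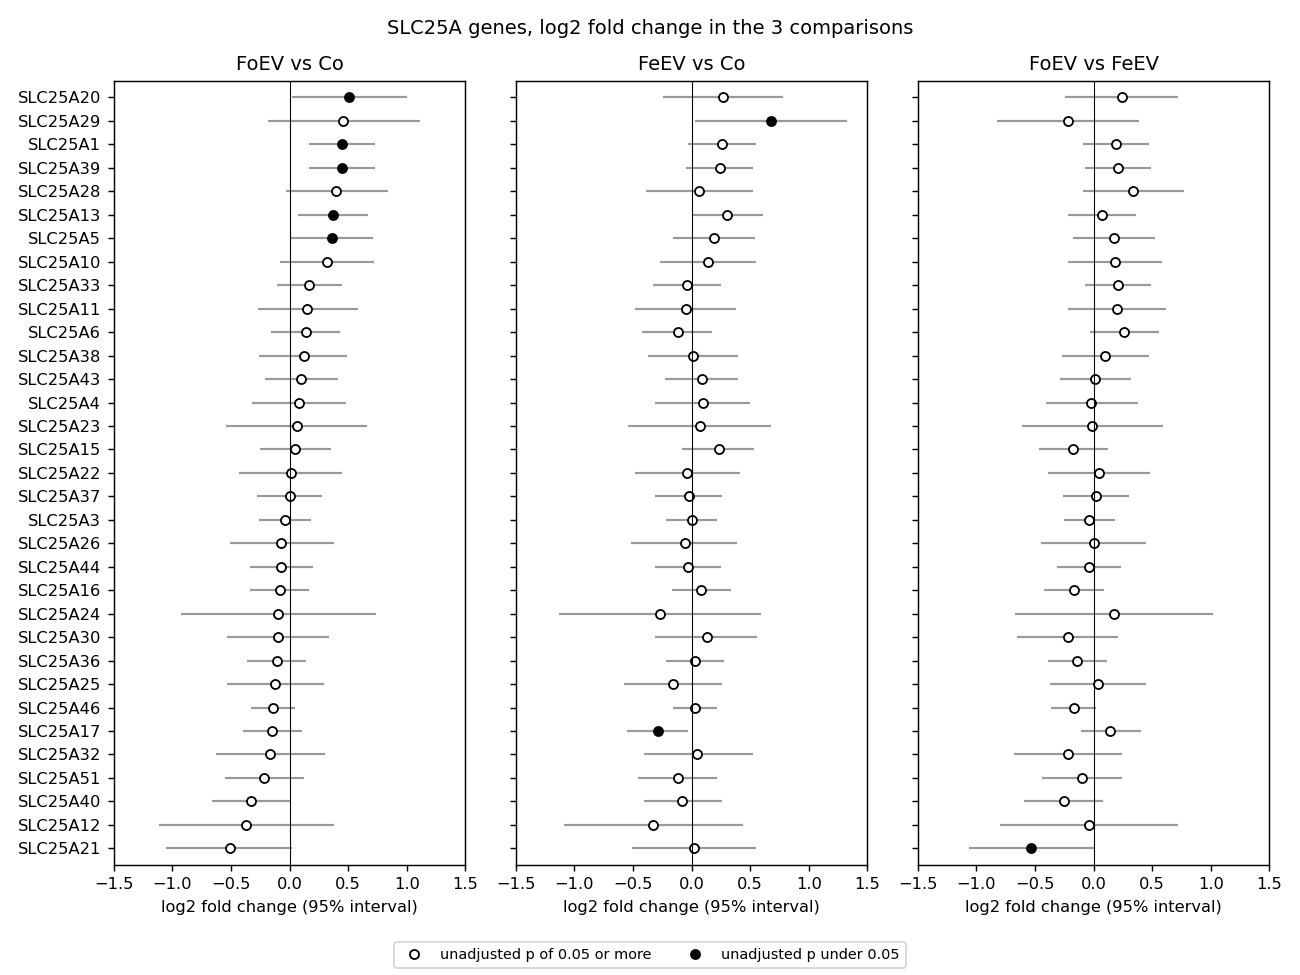
Log2 fold change of 33 SLC25A genes in FoEV vs Co, FeEV vs Co and FoEV vs FeEV, ordered by FoEV vs Co, with 95% intervals from the edgeR quasi-likelihood fit as grey lines. Filled points have an unadjusted p under 0.05, which holds for 5, 2 and 1 genes, and no gene has an adjusted p under 0.05.

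Most trophectoderm markers also had higher values in FoEV than in Co. Of the 9, 8 had a higher fitted level, 4 of them (GATA3, GATA2, KRT8 and KRT18) at an unadjusted p under 0.05 and 0 at an adjusted p under 0.05 in the edgeR quasi-likelihood test, where 15.1% of all genes passed the unadjusted limit, and 8.18% did so with a higher level. The summed level of the 9 was 8024 ± 958 CPM in Co and 10201 ± 1157 CPM in FoEV (SD, n = 5 each). Most of it was the keratins KRT8 and KRT18, with means of 4266 and 2684 CPM in Co and 5088 and 3929 CPM in FoEV. KRT18 had a log2 fold change of 0.55 with an adjusted p of 0.0818 in the same test. TFAP2A went the other way, with means of 24.7 CPM in Co and 17.4 CPM in FoEV and a log2 fold change of -0.49. Markers of the other layers had values on both sides. NANOG, a factor of the inner cell mass, was at 80.4 ± 19.9 CPM in Co and at 45.0 ± 16.7 CPM in FoEV (SD, n = 5 each), with a log2 fold change of -0.84 ± 0.26 (SE, adjusted p = 0.178 in the edgeR quasi-likelihood test). It was the 1 of 5 tested genes of its list with an unadjusted p under 0.05. The inner cell mass list as a whole summed to 524 ± 46.4 CPM in Co and 532 ± 104 CPM in FoEV (SD, n = 5 each). POU5F1, ESRRB and KLF4 made up most of it, with means of 168, 122 and 117 CPM in Co and 194, 134 and 121 CPM in FoEV. The hypoblast list summed to 7591 ± 1197 CPM in Co and 6302 ± 1143 CPM in FoEV (SD, n = 5 each). Most of this sum was FN1, the 1 of 5 tested genes of that list with an unadjusted p under 0.05, at a log2 fold change of -0.29 ± 0.14 (SE, adjusted p = 0.331 in the same test). The part of these cell type markers in the values of the 5 members was not tested.

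With all libraries thinned to 2117202 filtered counts, 5 members had an unadjusted p under 0.05 in FoEV against Co, of which 4 were among the 5 above. SLC25A20 was replaced by SLC25A28. The adjusted p in the thinned counts was 0.146 for SLC25A1, 0.247 for SLC25A39 and 0.47 for SLC25A20 in the edgeR quasi-likelihood test.

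By substrate, the carriers of carboxylates and acylcarnitine stood highest in FoEV against Co. They also did so in FeEV against Co, with 4 of 5 higher and a median log2 fold change of 0.14. In FoEV against Co, 4 of 5 tested members had a higher level, where 52.3% of all genes did. Their median log2 fold change was 0.32, against 0.01 for all genes, and 0 had an adjusted p under 0.05 in the edgeR quasi-likelihood test. The higher members included SLC25A1 and SLC25A20, already named above for a low unadjusted p in this comparison. The others were SLC25A10, the dicarboxylate carrier, and SLC25A11, the carrier that exchanges 2-oxoglutarate for malate. SLC25A10 was at 60.2, 49.6, 35.8, 40.1 and 37.8 CPM in Co, at 38.4, 49.8, 48.5, 60.6 and 50.6 CPM in FeEV and at 52.1, 34.6, 58.7, 83.5 and 52.1 CPM in FoEV. Only FoEV replicate 4 was above all Co libraries, and the log2 fold change was 0.32 (interval -0.08 to 0.72). SLC25A11 had means of 22.8 ± 6.63 CPM in Co and 25.6 ± 6.66 CPM in FoEV (SD, n = 5 each).

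The exception in FoEV against Co was SLC25A21, a carrier of oxodicarboxylates such as 2-oxoadipate, formed in the breakdown of lysine and tryptophan. It was at 10.6, 11.8, 11.9, 10.8 and 13.1 CPM in Co, at 14.0, 12.3, 6.88, 9.56 and 15.9 CPM in FeEV and at 11.1, 9.59, 7.99, 3.0 and 8.45 CPM in FoEV. FoEV replicate 4 was the lowest of all libraries, with 9 reads, and 4 of 5 FoEV libraries lay below every Co library. For FoEV against Co it had a log2 fold change of -0.51 ± 0.26 (SE, interval -1.05 to 0.02, adjusted p = 0.354 in the edgeR quasi-likelihood test).

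Of the 10 carriers of amino acids and glutathione, 6 were higher in FoEV than in Co and 4 lower, and their median log2 fold change was 0.03. SLC25A22, a glutamate carrier, had nearly equal means of 18.1 ± 5.0 CPM in Co and 18.2 ± 4.21 CPM in FoEV, as did SLC25A44, a carrier of branched-chain amino acids, with 42.1 ± 6.01 and 40.3 ± 6.18 CPM (SD, n = 5 each). SLC25A15, which carries ornithine, was at 31.2, 36.4 and 32.4 CPM in Co, FeEV and FoEV on average. SLC25A38, a carrier linked to glycine import for heme synthesis, was at 12.6, 12.9 and 13.6 CPM, and SLC25A26, the carrier of S-adenosylmethionine, at 9.16, 8.81 and 8.75 CPM. SLC25A12, the other aspartate/glutamate carrier, was at 5.89 ± 3.64 CPM in Co, where replicate 1 at 12 CPM was far above the rest, and at 4.81 ± 1.62 and 4.51 ± 1.41 CPM in FeEV and FoEV (SD, n = 5 each).

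The 13 carriers of nucleotides, coenzymes and related cofactors were split into 6 higher and 7 lower in FoEV than in Co, and their median log2 fold change was -0.08. SLC25A51, the carrier of NAD+, was at 45.0 ± 8.71, 41.7 ± 9.02 and 39.0 ± 8.05 CPM in Co, FeEV and FoEV (SD, n = 5 each). SLC25A16 had means of 35.6, 37.8 and 33.6 CPM. SLC25A33, another pyrimidine nucleotide carrier, was at 23.2, 22.4 and 26.0 CPM, and SLC25A32, linked to folate and flavin transport, at 11.7, 12.2 and 10.5 CPM. Of the carriers that exchange ATP-Mg for phosphate and are gated by calcium, SLC25A24 varied most. It ran from 12.8 to 26.3 CPM in Co, from 7.74 to 22.9 CPM in FeEV and from 3.67 to 25.7 CPM in FoEV, and its interval of the log2 fold change of FoEV against Co, -0.93 to 0.74, was the widest of the 34. The others of this kind, SLC25A25 and SLC25A23, had means of 10, 8.95 and 9.17 CPM and of 4.95, 5.26 and 5.1 CPM.

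Among the 4 carriers of phosphate, metals and protons, SLC25A37 and SLC25A28 encode the mitoferrins, which bring iron into the matrix for heme and iron-sulfur clusters. SLC25A37 was at 30.4 ± 4.79, 29.8 ± 3.98 and 30.3 ± 3.69 CPM in Co, FeEV and FoEV (SD, n = 5 each). SLC25A28 was at 8.02, 5.4, 10, 8.83 and 6.98 CPM in Co, at 8.05, 5.94, 7.19, 7.74 and 11.7 CPM in FeEV and at 10.4, 9.84, 9.64, 11 and 11.2 CPM in FoEV. The FoEV libraries were close together, with only Co replicate 3 and FeEV replicate 5 reaching their range. The log2 fold change was 0.40 (interval -0.03 to 0.84) against Co and 0.34 (interval -0.09 to 0.77) against FeEV, the latter 0.52 without FeEV replicate 5. SLC25A43, with no settled substrate, was at 28.6, 30.4 and 30.7 CPM on average.

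**Figure D3:**
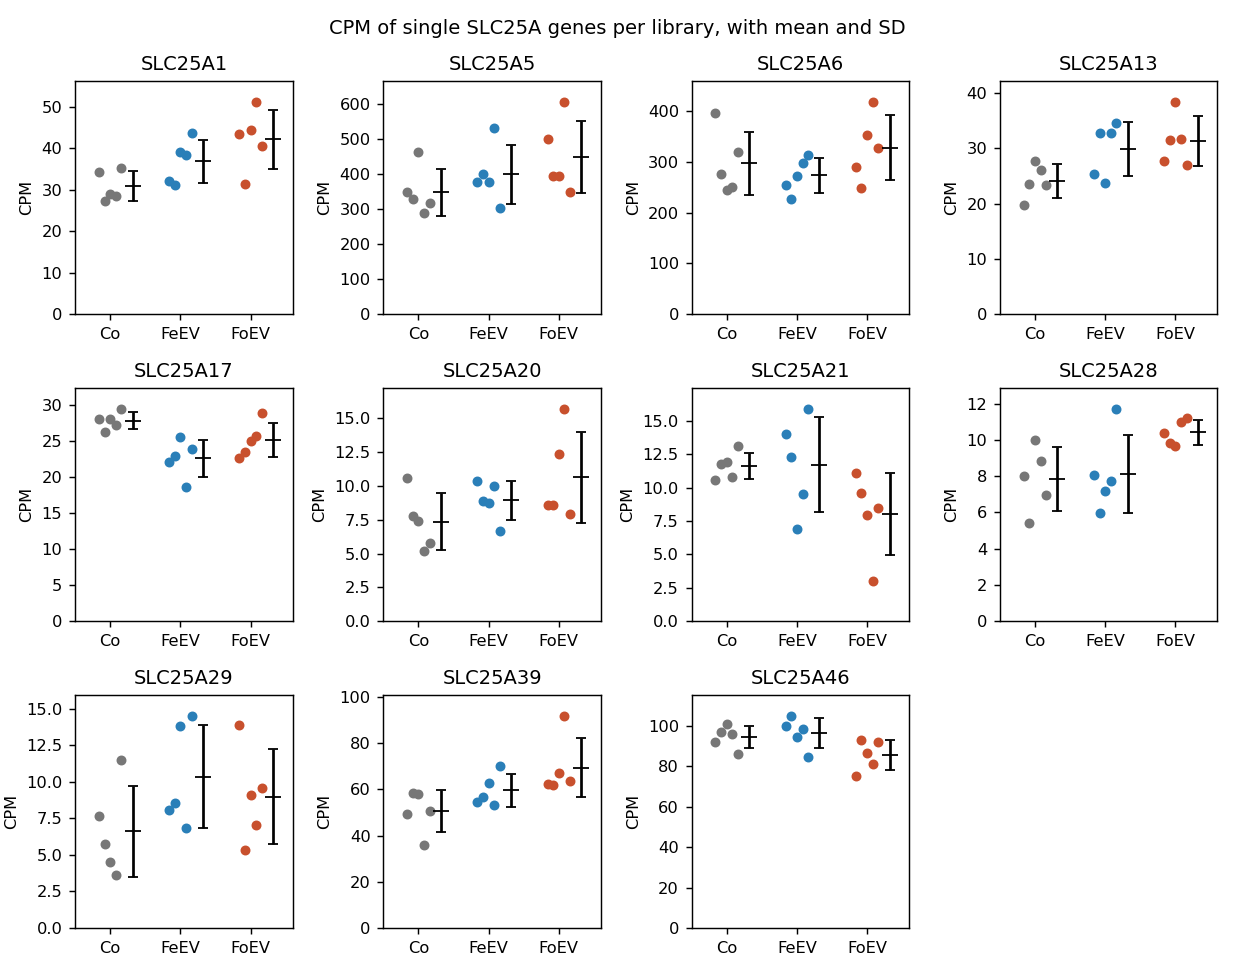
CPM after TMM scaling in each of 15 libraries for 11 SLC25A genes, the 5 with the lowest unadjusted p in each comparison, with replicates 1 to 5 from left to right and the mean and SD in black beside them. SLC25A39 has no FoEV library as low as any Co library, and SLC25A17 no FeEV library as high as any Co library, while the treatments overlap in the panels of the other genes for both oEV treatments.

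In FeEV against Co, 20 members had a higher and 14 a lower fitted level, and the median log2 fold change was 0.03, against 0.00 for all genes. The edgeR quasi-likelihood test called 0 members and 0% of all genes, and the robust likelihood ratio test and DESeq2 also called 0 members, against 0.0554% and 0.00923% of all genes. At an unadjusted p under 0.05 there were 2 members, or 5.88%, against 4.15% of all genes, with 1 higher (1.83% of all genes) and 1 lower (2.32%), while the robust likelihood ratio test gave 3 (6.13% of all genes) and DESeq2 gave 2 (3.79%). Without Co replicate 2, Co replicate 4, FeEV replicate 4 or FeEV replicate 5, the count was 1, and with thinned counts it was 0.

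One of these was SLC25A17, a carrier of coenzyme A, FAD and NAD+ in the peroxisomal membrane and so a member outside the mitochondrion. It was at 28.1, 26.3, 28.1, 27.3 and 29.5 CPM in Co, at 22.1, 23.0, 25.6, 18.7 and 24 CPM in FeEV and at 22.7, 23.5, 25.1, 25.7 and 28.9 CPM in FoEV. Every FeEV library lay below every Co library, which was so for 0.415% of all genes, and the FoEV libraries overlapped with both. Between FeEV and Co the log2 fold change was -0.29 ± 0.12 (SE, interval -0.55 to -0.03), with an unadjusted p of 0.0306 and an adjusted p of 1.0 in the edgeR quasi-likelihood test. Over the alternatives the log2 fold change ran from -0.34 to -0.22.

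The other was SLC25A29, a carrier of basic amino acids such as arginine and lysine. It was at 7.66, 5.74, 4.51, 3.61 and 11.5 CPM in Co, at 8.05, 8.54, 13.8, 6.83 and 14.5 CPM in FeEV and at 13.9, 5.3, 9.09, 7.01 and 9.54 CPM in FoEV. The ranges overlapped, and only FeEV replicates 3 and 5 were above Co replicate 5. The log2 fold change of FeEV against Co was 0.68 ± 0.31 (SE, interval 0.03 to 1.33, adjusted p = 1.0 in the edgeR quasi-likelihood test), the largest of the family in any comparison. The citrate carrier SLC25A1 and SLC25A39 were at 0.26 and 0.24 on the same log2 scale, both with an adjusted p of 1.0, and without Co replicate 4 the value of SLC25A39 was 0.14.

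The direct comparison of FoEV with FeEV gave 17 members with a higher and 17 with a lower level, with medians of 0.00 for the members and 0.01 for all genes on the log2 scale. The edgeR quasi-likelihood test called 0 members and 0% of all genes, and the robust likelihood ratio test and DESeq2 called 0 members, against 0.286% and 0.0277% of all genes. At an unadjusted p under 0.05 there was 1 member by each of these tests, 2.94% of the family against 8.52% of all genes, or 3.69% for lower levels alone, in the quasi-likelihood test. The all-gene shares were 11% in the robust likelihood ratio test and 8.33% in DESeq2. No member had treatments that did not overlap, where 1.5% of all genes did. The count at an unadjusted p under 0.05 was 0 without FeEV replicate 1, FeEV replicate 2, FoEV replicate 3 or FoEV replicate 4, and it was 4 without FeEV replicate 5 and 5 without FoEV replicate 2.

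The member was SLC25A21, with a log2 fold change of -0.53 ± 0.26 (SE, adjusted p = 0.578 in the edgeR quasi-likelihood test). After it came SLC25A46 at -0.17 ± 0.09 (SE, interval -0.36 to 0.02) and SLC25A6 at 0.26 ± 0.14 (SE, interval -0.03 to 0.56), with adjusted p of 0.602 and 0.607. For SLC25A39 the log2 fold change of FoEV against FeEV was 0.21 with an adjusted p of 0.661, so the difference between the oEV treatments was not shown for the member that stood apart from Co in FoEV. Leaving out FoEV replicate 4 brought these log2 fold changes to -0.34 for SLC25A21, 0.16 for SLC25A6 and 0.09 for SLC25A39. The intervals state what sizes remained possible. For the phosphate carrier SLC25A3 they reached from -0.26 to 0.18 in FoEV against Co and from -0.25 to 0.18 in FoEV against FeEV, whereas for SLC25A12, with few reads, they reached from -1.11 to 0.38 and from -0.8 to 0.72.

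Several members have a close relative with the same or a related substrate, and the reads shared between such a pair give a ratio within a library that does not depend on scaling. SLC25A39 and its relative SLC25A40 differed most. SLC25A40 was at 36.5, 44.9, 40.3, 36.1 and 43.5 CPM in Co, at 31.0, 51.2, 37.5, 32.8 and 38.5 CPM in FeEV and at 22.2, 32.3, 35.8, 26.7 and 43.3 CPM in FoEV. Of the FoEV libraries, 4 lay below every Co library, with a log2 fold change of -0.33 ± 0.16 (SE, interval -0.66 to 0.01, adjusted p = 0.344 in the edgeR quasi-likelihood test). SLC25A39 took 57.4%, 56.5%, 59.0%, 50% and 53.7% of the reads of the pair in Co, 63.8%, 52.6%, 62.6%, 61.9% and 64.5% in FeEV and 73.6%, 65.7%, 65.1%, 77.5% and 59.5% in FoEV. Every FoEV library lay above every Co library, the closest being FoEV replicate 5 and Co replicate 3. The pairs were set out without a test of their own, and this one holds the member already seen to stand apart.

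The other pairs overlapped between treatments. SLC25A28 took 20.6% ± 4.72, 21.4% ± 4.04 and 25.7% ± 2.13 of the mitoferrin reads in Co, FeEV and FoEV (SD, n = 5 each). SLC25A12 took 19.2% ± 10.8, 14.0% ± 4.55 and 12.7% ± 4.21 of the reads of the aspartate/glutamate carriers, so SLC25A13 was the form with most reads in every library. SLC25A33 took 14.1%, 13.3% and 16.5% of its reads with SLC25A36. SLC25A24 took 63.8% ± 5.94, 60.3% ± 9.8 and 59.8% ± 16.4 of its reads with SLC25A25 (SD, n = 5 each), and FoEV replicate 4, at 32.4%, was the lowest.

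**Figure D4:**
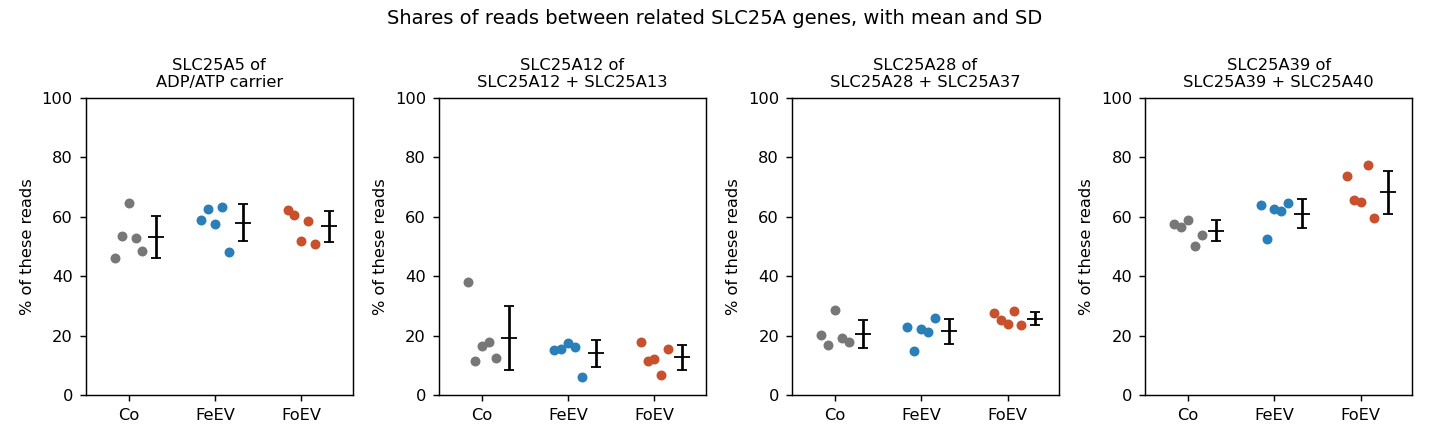
Share of reads in percent that the first named SLC25A gene took within a set of related carriers, per library and on an axis from 0 to 100, with the mean and SD in black. SLC25A39 took 50% to 59.0% in Co and 59.5% to 77.5% in FoEV, and in the other 3 panels the treatments overlap.

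FoEV replicate 4 held many of the ends just described. It was the highest FoEV library for 11 of the 34 members and the lowest for 6, so 50% of the members had an end of the FoEV range in it. Over all genes that share was 49.0% for this library, and it was between 33.0% and 49.0% for all libraries. Its ribosomal RNA share, 28.5%, was the highest of the 15, next to 28.2% in Co replicate 5. That Co library had an end of its treatment for 44.1% of the members and 38.1% of all genes. The part of the ribosomal RNA share in these values was not tested. FeEV replicate 5 had an end of its treatment for 50% of the members as well, against 46.3% of all genes.

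The genes kept in the filtered table all had at least 4.73 CPM of the unfiltered total in 5 or more libraries, and no gene left out reached that. This limit was read from the deposited counts, whereas the methods state a lower CPM limit in fewer libraries. Of the members, 29 were over this limit in all 15 libraries and 34 in at least 1 library of each treatment, so none was kept by a single treatment. The members just inside the limit were SLC25A12 and SLC25A23, each over it in 9 libraries. Just outside were SLC25A14, with 211 reads over all libraries and a mean of 4.37 CPM, and SLC25A27, with 193 reads and 4.05 CPM, both relatives of the uncoupling proteins best known from brain.

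SLC25A14 had 14, 7, 6, 14 and 9 reads in Co, 19, 8, 12, 10 and 14 in FeEV and 34, 17, 13, 16 and 18 in FoEV, or 3.74 ± 1.62, 4.17 ± 1.01 and 5.2 ± 1.64 CPM (SD, n = 5 each). The treatments overlapped on either scale. SLC25A31, the ADP/ATP carrier of the germ line, had 69 reads in all and at most 9 in a library. SLC25A2, the second ornithine carrier, had 49 reads, SLC25A42, a carrier of coenzyme A, had 52, and SLC25A35 and SLC25A34 had 135 and 66. SLC25A53 had 21 reads and SLC25A41, another relative of the ATP-Mg/phosphate carriers, had 10. SLC25A45, SLC25A47 and SLC25A48 had 4, 2 and 1 reads, with no library above 1. All 12 were thus read at least once, 4 of them (SLC25A14, SLC25A27, SLC25A35 and SLC25A31) in each of the 15 libraries. In a library without a read, the count of 0 allows up to 3 reads, which is between 0.739 and 1.4 CPM in these libraries and covers counting error only.

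**Figure D5:**
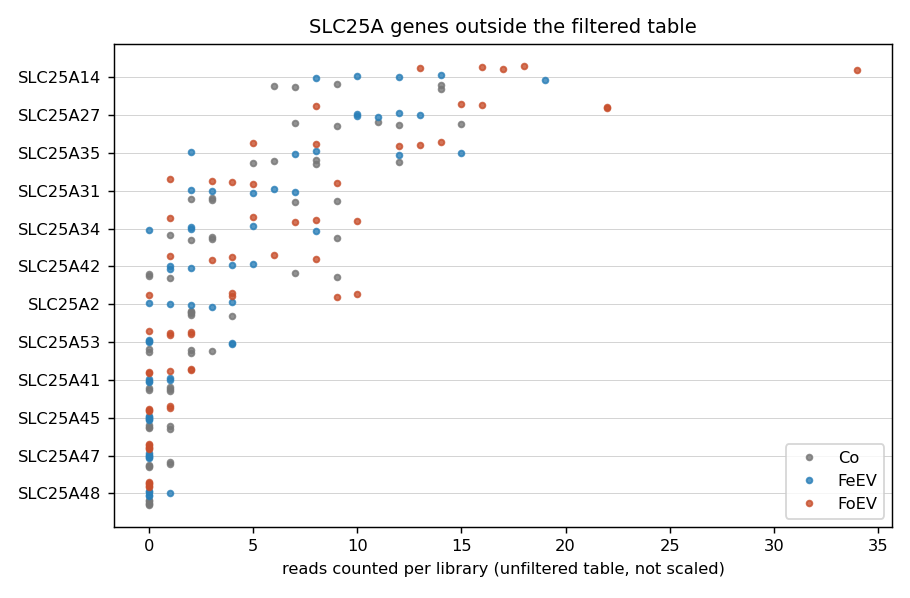
Reads per library, without scaling, of the 12 SLC25A genes outside the filtered table, with 1 point for each Co (grey), FeEV (blue) and FoEV (red) library. SLC25A14 and SLC25A27 reach 34 and 22 reads, and SLC25A45, SLC25A47 and SLC25A48 stay at 0 or 1.

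Some carriers of the family go by other symbols. MTCH1 and MTCH2, outer membrane proteins built on the carrier fold, and UCP2, an uncoupling protein, were tested, and all 3 had a higher level in FoEV than in Co, with log2 fold changes from 0.12 to 0.32 and 0 adjusted p under 0.05 in the edgeR quasi-likelihood test, and 0 at an unadjusted p under 0.05. MTCH1 was at 94.5 ± 4.0, 91.5 ± 6.87 and 109 ± 25.2 CPM in Co, FeEV and FoEV (SD, n = 5 each), with FoEV replicate 1 at 151 CPM. In FoEV against FeEV it had a log2 fold change of 0.26 ± 0.12 (SE, adjusted p = 0.564 in the same test), and MTCH2 and UCP2 were at -0.06 and -0.05. MTCH1 was the 1 of the 3 with an unadjusted p under 0.05 there, a limit that 8.52% of all genes passed. In FeEV against Co, MTCH1, MTCH2 and UCP2 were at -0.05, 0.18 and 0.37 on the log2 scale, each with an adjusted p of 1.0. UCP1 and UCP3, known from brown fat and muscle, had at most 1 read in any library.

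Carriers reach the inner membrane through the TOM complex, the small TIM chaperones of the intermembrane space and the TIMM22 complex. Of 16 genes of this route, 13 had a higher level in FoEV than in Co and 3 a lower one, and their median log2 fold change was 0.17, against 0.01 for all genes, of which 52.3% had a higher level. At an unadjusted p under 0.05 there were 3 of 16, all higher, where 15.1% of all genes had such a p in either direction and 8.18% with a higher level, and at an adjusted p under 0.05 there were 0 in the edgeR quasi-likelihood test. TIMM10, one of the small chaperones, was at 12.8, 11.5, 7.09, 11.6 and 15.2 CPM in Co, at 15.2, 14.9, 11.3, 12.8 and 12.6 CPM in FeEV and at 13.9, 14.9, 20.7, 19.4 and 17.7 CPM in FoEV. FoEV replicates 3, 4 and 5 lay above the other treatments, with a log2 fold change against Co of 0.58 ± 0.19 (SE, adjusted p = 0.171). TOMM40, the channel of the outer membrane, had 37.5 ± 3.56 CPM in Co and 46.4 ± 9.23 CPM in FoEV, and TOMM6 had 34.3 ± 4.71 and 42.7 ± 7.95 CPM (SD, n = 5 each). In FeEV against Co, 10 of the 16 were higher and 6 lower with a median of 0.09, and in FoEV against FeEV 12 were higher and 4 lower with a median of 0.10.

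Of 22 listed transporters of the mitochondrion outside the family, 19 were tested. In FoEV against Co 9 were higher and 10 lower, the median log2 fold change was -0.01, and 1 had an unadjusted p under 0.05 and 0 an adjusted p under 0.05 in the edgeR quasi-likelihood test. That gene was ABCB8, an ATP-driven transporter of the inner membrane, at 20.9 ± 4.94 CPM in Co and 27.5 ± 5.99 CPM in FoEV (SD, n = 5 each). In FeEV against Co it was SFXN1, a serine transporter, with 21.1 ± 3.25 CPM in Co and 15.0 ± 3.73 CPM in FeEV, and in FoEV against FeEV it was ABCB10, with 33.6 ± 4.43 CPM in FeEV and 27.7 ± 2.23 CPM in FoEV (SD, n = 5 each). At this unadjusted limit were 15.1% of all genes in FoEV against Co, 4.15% in FeEV against Co and 8.52% in FoEV against FeEV.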

How the data were processed

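The authors mapped the reads to ARS-UCD1.2, took genes from the annotation of NCBI and deposited raw counts per gene, unfiltered and filtered. The methods name QuasR Qcount for counting, while the submitters' processing notes list Trim Galore 0.4.3.1, HISAT2 2.1.0 and featureCounts 1.6.3. The treatment of reads with several matches is not given in the sources used here. Libraries were grouped by their titles. Counts were fitted with edgeR 4.0.16 in R 4.3.3 (TMM, estimateDisp, glmQLFit with robust=TRUE, glmQLFTest), with treatment as the only factor, and p-values were adjusted over 10832 genes. The common biological coefficient of variation was 0.159. Tested on counts simulated for FoEV against Co over 10832 genes, this test recovered 71.1% of genes changed by 1 and 22.3% of genes changed by 0.5 on the log2 scale, with 7.07% false calls. This was a single draw, independent between genes, with 97 genes changed by 1 and 103 by 0.5. Recovery in the real libraries may differ, since their share of changed genes is not known and they may share variation.

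Alternatives were other scalings, filters and tests (DESeq2 1.42.0), a replicate block, thinned counts, removal of ribosomal RNA genes and leaving out each library. Members, substrate lists and marker lists were chosen with earlier results of these data known. The levels shown in every library are those of the 8 members with the highest mean CPM and, in each comparison, of the 5 members with the lowest unadjusted p. SLC25A40, SLC25A14 and TIMM10 were added after their values were seen. The values of 1 member are not reported here, and it enters only the counts and medians. A symbol search matched 0 of 13 mitochondrially encoded proteins, which were not analysed here. Sequences, coordinates and transcript lengths were not used here, and CPM is not corrected for length.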

Additional observations from a re-analysis of the deposited data

Results flagged for a closer look

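SLC25A39 was at 91.8 CPM in FoEV replicate 4, while the other 4 FoEV libraries lay between 61.8 and 67.0 CPM, a gap large enough to pass the Dixon limit of 0.71 for 5 values. Of the 48 groups of 5 libraries examined in this way, 1 passed. The members examined were the 15 named for their level or p-value, and not the whole family. The 48 groups include some beyond those of these members. Chance flags about 1 in 20 groups, so 1 in 48 is no more than that. The other 4 FoEV libraries also lay above every Co library, and without replicate 4 the log2 fold change of FoEV against Co was 0.33 in place of 0.45.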

How the results depend on the processing

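The 15 fold changes followed by name kept their direction in each of 314 values from the alternatives. DESeq2 gave no adjusted p for SLC25A20 in FoEV against Co. Of the values with an adjusted p, all but 1 kept their side of the threshold. The exception was SLC25A1 in FoEV against Co under the robust likelihood ratio test, so 1 SLC25A gene was called there in place of 0. At an unadjusted p under 0.05, FoEV against Co gave 5 genes, all higher, and 8 with no filter, 2 of them lower. Either replicate block also gave 2 lower genes. The size factors of DESeq2, the robust likelihood ratio test and removal of ribosomal RNA genes each gave 1, as did some fits without 1 library. FeEV against Co gave 2 genes, 0 with thinned counts, and 1 with no filter or a filter of 10 CPM in 5 libraries, which also removed SLC25A29 from the test. FoEV against FeEV gave 1 gene, 3 with thinned counts, 2 with no filter, and 0 with the filter of 10 CPM, with only the compared treatments, with upper quartile factors or with a block by the number in the description. Leaving out 1 library at a time gave 3 to 6 genes in FoEV against Co, 1 to 3 in FeEV against Co and 0 to 5 in FoEV against FeEV. Without ribosomal RNA genes SLC25A genes took 0.24%, 0.25% and 0.256% of the counts in Co, FeEV and FoEV, since the total was smaller. The cause of the other differences was not tested.

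The labels do not state that the title numbers pair the libraries, so the main fit did not pair them. Whether the numbers mark a shared source was not settled. Of 15 same-number pairs, 7 had residual correlations over 0.1, and their mean was above that of other pairs in each comparison. Same-number pairs had mean correlations of 0.138 for FeEV with Co, 0.034 for FoEV with Co and 0.186 for FoEV with FeEV, against -0.034, -0.008 and -0.047 for other pairs, and the best match of a library had its own number in 11 of 30 cases, where 6 would be the mean for numbers without meaning. With a block by title number the counts at an unadjusted p under 0.05 were 7, 3 and 1, and 0 genes were called in each comparison. A block by the number in the description gave SLC25A20 a log2 fold change of 0.86 in FoEV against Co, in place of 0.51. Depth limits the low members most. SLC25A12 and SLC25A23 rested on a mean of 15.7 and 16.1 reads per library.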
